A study of Gallus gallus with 9 samples.

Results

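The genes described here are the receptors of insulin (INSR), insulin-like growth factor (IGF1R), fibroblast growth factors (FGFR1, FGFR2 and FGFR3) and epidermal growth factor (EGFR), with the ligands IGF1, IGF2 and FGF2. They were chosen by name, as growth factor signals with a known part in eye growth in chicks, and every chicken probe set that the platform annotation pairs with 1 of these 9 symbols was taken. A probe set is a group of short oligonucleotides that together read 1 transcript. This gave 24 probe sets among the 37693 chicken probe sets of the array, and 9 genes among the 13008 that these probe sets name with 1 symbol each. Of the 24, 8 were measured above a floor of log2 4 and 16 were not.

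Insulin and the IGFs bind receptor tyrosine kinases that pass the signal through adaptor proteins to the PI3K, AKT and TOR kinases and to the RAS and MAPK cascade. FGFs and EGF act through receptor tyrosine kinases of their own that feed the same pair of routes. In chicks, injection of insulin into the vitreous is known to promote elongation of the eye, and injection of FGF2 to reduce the elongation caused by form deprivation. In the chick retina, insulin together with FGF2 is also known to drive Müller glia, the main glial cells, to divide.

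RNA came from the amacrine cell layer, the part of the inner retina that holds interneurons called amacrine cells, cut by laser capture from chick eyes and hybridised to Affymetrix Chicken Genome arrays. The 9 arrays comprise 3 from eyes that wore a lens of -7 D for 24 h, which stimulates eye growth, 3 from eyes that wore a lens of 7 D for 24 h, which suppresses it, and 3 from untreated chicks of the same age as control. The lenses covered 1 eye of each chick, and all birds had 12 h of light a day at 500 lux. Strain and age are not given in the labels. The labels name 3 chicks and 3 separate samples for each condition without tying a sample to a chick, so p-values measure the spread between these samples, part of which may be technical.

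Between 12721 and 12835 chicken probe sets of an array lay at or above the floor. Minus lens replicate 3 stood apart, with a mean correlation of 0.953 with the other 8 arrays, against 0.971 to 0.975 for each of those. Its hybridisation control probe sets averaged log2 13.33, against 11.8 to 12.51 on the others. Its median intensity was 8.32 on the linear scale, against 7.57 to 8.04. The arrayWeights function of limma gave it a weight of 0.30, against 0.68 to 1.59. The amacrine marker GAD1, an enzyme of GABA synthesis, averaged log2 14.12 ± 0.04 with the minus lens, 14.28 ± 0.06 with the plus lens and 14.26 ± 0.11 in control (SD, n = 3 each), and 11 of 13 amacrine markers with a probe set were measured. The 13 summed to 53780 to 61500, 58540 to 65240 and 59900 to 66410 in the same groups, with overlap between all 3. Minus lens replicate 3 had the lowest sum of the 9 arrays. SLC32A1 averaged log2 12.00 ± 0.26, 12.45 ± 0.26 and 12.42 ± 0.14 in these groups. Of the measured amacrine genes, only CALB2 and SLC18A3 had a higher mean with the minus lens than in control. For bipolar cells, the interneurons next to this layer, the summed intensity of 10 of 13 listed genes, all 10 measured, was 5155 to 7238 in the minus lens group, 3810 to 4124 in the plus lens group and 3674 to 4480 in the control group. The sum was carried mainly by the transcription factor OTX2, at log2 11.80 ± 0.44 with the minus lens, 10.96 ± 0.12 with the plus lens and 10.89 ± 0.24 in control (SD, n = 3 each). In the same groups VSX1 averaged 8.83, 7.96 and 7.87, and GNG13 averaged 7.69, 6.75 and 6.31. For OTX2, VSX1 and GNG13, and for the summed intensity, every minus lens array lay above every other array. The mean of GRIK1 was also higher with the minus lens, with overlap. The means of the other 6 genes lay within log2 0.1 of control or, for NETO1, below it. Müller glia markers, 10 measured of 12 with a probe set, summed to 18930 to 31440, 17410 to 28010 and 22830 to 32370 in the same groups, with overlap between all 3. Photoreceptor markers, 2 measured of 13 with a probe set, summed to 658 to 860, 565 to 629 and 399 to 523. That sum was carried mainly by 1 gene, GNB3, at log2 9.35 ± 0.21, 8.98 ± 0.08 and 8.54 ± 0.21 in the same groups (SD, n = 3 each). The other measured gene, OPN1LW, averaged 3.84, 4.37 and 3.38, near the floor. The sum therefore does not show a difference across the photoreceptor list. The part that a differing mixture of cells plays in the values below was not tested, and in tissue of this kind fewer cells of a type and less RNA per cell cannot be told apart.

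Receptors of insulin, IGF and FGF were measured in this layer, whereas no probe set of the ligands IGF1, IGF2 and FGF2 or of the receptor EGFR reached the floor on any array. The 8 measured probe sets belong to 5 genes, 2 to INSR, 1 to IGF1R, 1 to FGFR1, 1 to FGFR2 and 3 to FGFR3, and each was above log2 4 on all 9 arrays. The measured share of the members, 33.3%, was close to the 34.4% of all chicken probe sets. Just inside the floor lay 1 FGFR3 probe set (Gga.16413.3.S1_at), with a lowest array of log2 4.31 and a highest of 5.22. Just outside lay 1 FGFR2 probe set (Gga.14338.1.S1_at), at 3.54 to 3.73, and 1 EGFR probe set (Gga.2304.1.S1_at), at 2.87 to 3.66. No test was applied at this boundary.

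**Figure D1:**
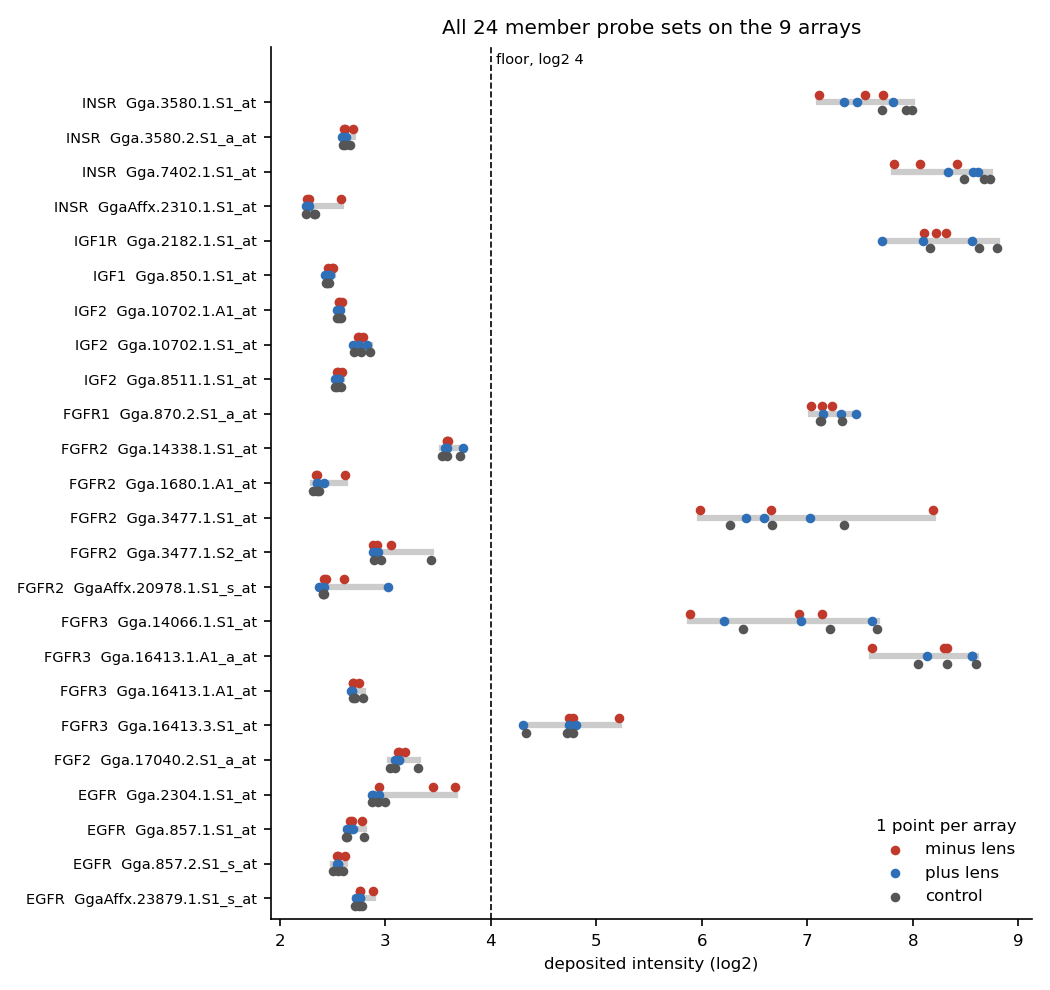
Deposited intensity (log2, x axis) of all 24 probe sets of the 9 genes (rows), with 1 point for each array, coloured by lens group, a grey bar from the lowest to the highest array, and a dashed line at the floor of log2 4. The 8 measured probe sets, of INSR, IGF1R, FGFR1, FGFR2 and FGFR3, lie above log2 4 on every array, and the other 16 lie between 2.25 and 3.73.

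The 16 probe sets below the floor varied little. For 10 of them the highest and the lowest of the 9 arrays differed by less than log2 0.25, and the median of that range over the 16 was 0.17. The background was also read from 746 probe sets on the array that carry neither a chicken nor a control prefix, of which 5 (0.670%) reached the floor. The 95th percentile of their mean levels was log2 3.33, and 1 of the 16, the FGFR2 probe set Gga.14338.1.S1_at, had a mean above it. A value in this range sets only an upper bound on the transcript, because the authors' background correction compresses dim signals, and a probe set can also miss a transcript that is present.

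IGF1, a secreted growth factor made by many tissues, was read by 1 probe set (Gga.850.1.S1_at), at log2 2.46, 2.50 and 2.50 on the minus lens arrays, 2.47, 2.43 and 2.46 on the plus lens arrays and at 2.47, 2.44 and 2.45 on the control arrays. IGF2, its relative with roles in growth before hatching, had 3 probe sets, all between 2.52 and 2.85. Gga.10702.1.A1_at and Gga.10702.1.S1_at share their number and differ only in the suffix, so they may not be separate readings of IGF2. Neither IGF gene was thus above the floor in any lens group. FGF2, which binds FGF receptors together with heparan sulphate, was read by 1 probe set (Gga.17040.2.S1_a_at), at 3.12, 3.13 and 3.18 on the minus lens arrays, 3.13, 3.09 and 3.13 on the plus lens arrays and at 3.31, 3.04 and 3.09 on the control arrays. The highest of these, control replicate 1, was still below the floor.

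EGFR, the receptor of epidermal growth factor and related ligands, had 4 probe sets and none above the floor. For 3 of them, of which Gga.857.2.S1_s_at and GgaAffx.23879.1.S1_s_at carry the suffix for probes that can match more than 1 gene, every array lay between log2 2.51 and 2.88. The fourth, Gga.2304.1.S1_at, stood at 3.66, 2.94 and 3.45 on minus lens replicates 1, 2 and 3, at 2.88, 2.94 and 2.89 on the plus lens arrays and at 2.93, 2.87 and 2.99 on the control arrays. Of the minus lens arrays, 2 of 3 lay above every other array, and the third lay within the range of the other 2 groups. When the floor was left out and all 37693 chicken probe sets were tested in limma, this probe set differed by log2 0.42 from control (unadjusted p = 0.0276, adjusted p = 0.962) and by 0.45 from the plus lens group (unadjusted p = 0.0203, adjusted p = 0.872), and neither difference passed. No EGFR probe set was otherwise tested, and the size of a difference below the floor is uncertain.

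Among the measured members, the insulin receptor gene INSR had the smallest unadjusted p for minus lens against control, with a lower mean with the lens, and did not pass the test. INSR encodes a receptor tyrosine kinase that binds insulin and, less tightly, the IGFs. Its probe set Gga.7402.1.S1_at stood at log2 8.42, 7.82 and 8.07 on minus lens replicates 1, 2 and 3, at 8.34, 8.62 and 8.57 on the plus lens arrays and at 8.67, 8.49 and 8.73 on the control arrays. Every minus lens array lay below every control array, while the minus lens and plus lens groups overlapped through minus lens replicate 1 and plus lens replicate 1. The minus lens group averaged 8.10 ± 0.30 and the control group 8.63 ± 0.13 (SD, n = 3 each), a difference of log2 -0.53 (SE 0.17, 95% confidence interval -0.91 to -0.15), or 1.44-fold lower. In limma the adjusted p was 0.683 over the 12975 probe sets tested (unadjusted p = 0.0125), and an exact two-sided permutation test of the 6 arrays gave p = 0.1, the smallest that 3 against 3 arrays allow.

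The other measured INSR probe set, Gga.3580.1.S1_at, stood at log2 7.72, 7.11 and 7.55 on the minus lens arrays, 7.81, 7.35 and 7.47 on the plus lens arrays and at 7.94, 7.99 and 7.70 on the control arrays. The lowest of the 9 arrays was minus lens replicate 2, as for Gga.7402.1.S1_at. All groups overlapped here, since minus lens replicate 1 and plus lens replicate 1 both lay above control replicate 3. The difference from control was -0.42 (SE 0.19, adjusted p = 0.721) for the minus lens and -0.33 (SE 0.19, adjusted p = 0.9998) for the plus lens, the first 1.33-fold lower and the second 1.26-fold lower. The first was -0.24 without minus lens replicate 2. For Gga.7402.1.S1_at the plus lens mean was 8.51 ± 0.15, which differed from control by -0.12 (SE 0.17, interval -0.50 to 0.26, adjusted p = 0.9998). The probe sets therefore had the same direction in both lens groups, each set against the same control arrays. They differed in whether the plus lens mean lay nearer to the control mean or to the minus lens mean. The remaining INSR probe sets, Gga.3580.2.S1_a_at and GgaAffx.2310.1.S1_at, lay below the floor at log2 2.25 to 2.69.

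Between the lenses, INSR at Gga.7402.1.S1_at averaged 8.10 ± 0.30 with the minus lens and 8.51 ± 0.15 with the plus lens (SD, n = 3 each), a difference of -0.41 (SE 0.17, interval -0.79 to -0.02, unadjusted p = 0.0395, adjusted p = 0.689). At Gga.3580.1.S1_at the lens means were 7.46 ± 0.31 and 7.54 ± 0.24, and differed by -0.08 (SE 0.19, interval -0.52 to 0.36). Neither passed. With minus lens replicate 3 left out, the difference of Gga.7402.1.S1_at was -0.51 from control and -0.39 from the plus lens group, and with minus lens replicate 2 left out it was -0.39 and -0.27.

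IGF1R, the receptor tyrosine kinase for IGF1 and IGF2, was read by 1 probe set (Gga.2182.1.S1_at). It stood at log2 8.11, 8.32 and 8.22 on the minus lens arrays, at 8.10, 8.56 and 7.71 on the plus lens arrays and at 8.63, 8.80 and 8.16 on the control arrays. Control replicates 1 and 2 were the highest arrays, but control replicate 3 lay among the lens arrays, so no pair of groups separated. The means were 8.22 ± 0.10, 8.12 ± 0.43 and 8.53 ± 0.33 for the minus lens, the plus lens and the control group. Both lens groups were lower than control in the mean, by log2 -0.32 for the minus lens (SE 0.24, interval -0.85 to 0.22, adjusted p = 0.783) and -0.41 for the plus lens (SE 0.24, interval -0.94 to 0.13, adjusted p = 0.9998). These comparisons share the 3 control arrays, and neither passed. Single arrays moved both: the minus lens difference was -0.18 without control replicate 2 and -0.50 without control replicate 3, and the plus lens difference was -0.63 without plus lens replicate 2 and -0.20 without plus lens replicate 3.

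FGFR1, the most steady of the measured members, is an FGF receptor expressed widely in neural tissue. Its single probe set, Gga.870.2.S1_a_at, stood at log2 7.14, 7.24 and 7.04 on the minus lens arrays, 7.15, 7.32 and 7.47 on the plus lens arrays and at 7.33, 7.13 and 7.12 on the control arrays. All 9 arrays lay within log2 0.43 of each other, and the 3 groups overlapped. The replicate SD within groups was 0.13, and 13.5% of tested probe sets had a smaller one. The minus lens mean differed from control by -0.06 (SE 0.13, interval -0.36 to 0.25) and the plus lens mean by 0.12 (SE 0.13, interval -0.19 to 0.42). Those bounds correspond to at most 1.29-fold lower or 1.19-fold higher with the minus lens and 1.14-fold lower or 1.34-fold higher with the plus lens.

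FGFR2, an FGF receptor whose splice forms differ in the ligands they bind, had 5 probe sets, of which 1 (Gga.3477.1.S1_at) was measured. The other 4 lay between log2 2.32 and 3.73 on every array. Of these, Gga.3477.1.S2_at shares its number with the measured probe set, yet lay below the floor at 2.88 to 3.44. The measured probe set stood at log2 5.98, 6.66 and 8.19 on minus lens replicates 1, 2 and 3, at 7.02, 6.42 and 6.59 on the plus lens arrays and at 7.35, 6.27 and 6.66 on the control arrays. The minus lens group held both the lowest and the highest of the 9 arrays. Its replicate SD within groups was 0.75, larger than that of 97.1% of the probe sets tested. The highest array was minus lens replicate 3, the one that stood apart in its correlation, hybridisation controls and array weight. On that array the amacrine markers had the lowest sum of the 9 arrays (53780), and the Müller glia markers the lowest of the minus lens group (18930). The Müller glia genes did not move alike. GLUL (log2 12.38) and CA2 (8.41) were at their lowest of the 9 arrays there, and CRYM (9.36) and DKK3 (9.42) at their highest. The bipolar markers (7238) and the oligodendrocyte and astrocyte markers (3858) had the highest sums of the 9 arrays. The bipolar sum was carried mainly by OTX2, at log2 12.20 on that array. VSX1 (8.87) and GNG13 (7.90) were also at their highest of the 9 arrays there, while NETO1 was at its lowest (4.02). The oligodendrocyte and astrocyte sum was carried mainly by 1 gene, MBP, at log2 11.86 on that array. Of the other measured genes of that list, PAX2 was at its highest of the 9 arrays there and OLIG2 at its lowest. The sum therefore does not show a rise across that list. The part of these cell types, or of the technical differences of that array, in the FGFR2 value was not tested. The mean difference from control was 0.19 (SE 0.52, interval -0.997 to 1.37, adjusted p = 0.948) for the minus lens and changed sign to -0.44 without that array, and it was -0.08 (SE 0.52, interval -1.26 to 1.10, adjusted p = 0.9998) for the plus lens. Leaving out 1 array at a time gave minus lens differences of -0.44 to 0.67. The upper bound of the minus lens interval is 2.58-fold higher, so these arrays leave a wide range of differences possible for FGFR2.

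FGFR3, an FGF receptor of the nervous system and of cartilage, was read by 3 measured probe sets that did not move alike over the arrays. Gga.16413.1.A1_a_at stood at log2 8.30, 7.61 and 8.32 on the minus lens arrays, 8.56, 8.13 and 8.56 on the plus lens arrays and at 8.60, 8.05 and 8.32 on the control arrays. Gga.14066.1.S1_at stood at 6.92, 7.14 and 5.89 on the minus lens arrays, 6.21, 7.61 and 6.94 on the plus lens arrays and at 7.66, 7.22 and 6.39 on the control arrays. Gga.16413.3.S1_at, close to the floor, stood at 5.22, 4.78 and 4.74 on the minus lens arrays, 4.74, 4.31 and 4.81 on the plus lens arrays and at 4.78, 4.72 and 4.34 on the control arrays. The lowest array was minus lens replicate 2 for the first, minus lens replicate 3 for the second and plus lens replicate 2 for the third, and all groups overlapped for each.

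The minus lens differences of FGFR3 from control were -0.24 (SE 0.23, interval -0.78 to 0.29) at Gga.16413.1.A1_a_at, -0.44 (SE 0.47, interval -1.51 to 0.63) at Gga.14066.1.S1_at and 0.30 (SE 0.20, interval -0.16 to 0.76) at Gga.16413.3.S1_at, with adjusted p of 0.821, 0.839 and 0.762. The plus lens differences were 0.10, -0.17 and 0.01 in the same order. Direction therefore differed between probe sets of FGFR3 in both comparisons, and none passed. Single arrays moved all 3 minus lens differences. The value at Gga.14066.1.S1_at was -0.06 without minus lens replicate 3 and -0.16 without control replicate 1, and it was larger, -0.69, without minus lens replicate 2 and -0.79 without control replicate 3. The value at Gga.16413.1.A1_a_at was -0.01 without minus lens replicate 2, -0.11 without control replicate 1 and -0.38 without control replicate 2. The value at Gga.16413.3.S1_at was 0.15 without minus lens replicate 1 and 0.16 without control replicate 3. The fourth FGFR3 probe set, Gga.16413.1.A1_at, whose identifier shares its number with Gga.16413.1.A1_a_at, lay below the floor at 2.67 to 2.79.

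**Figure D2:**
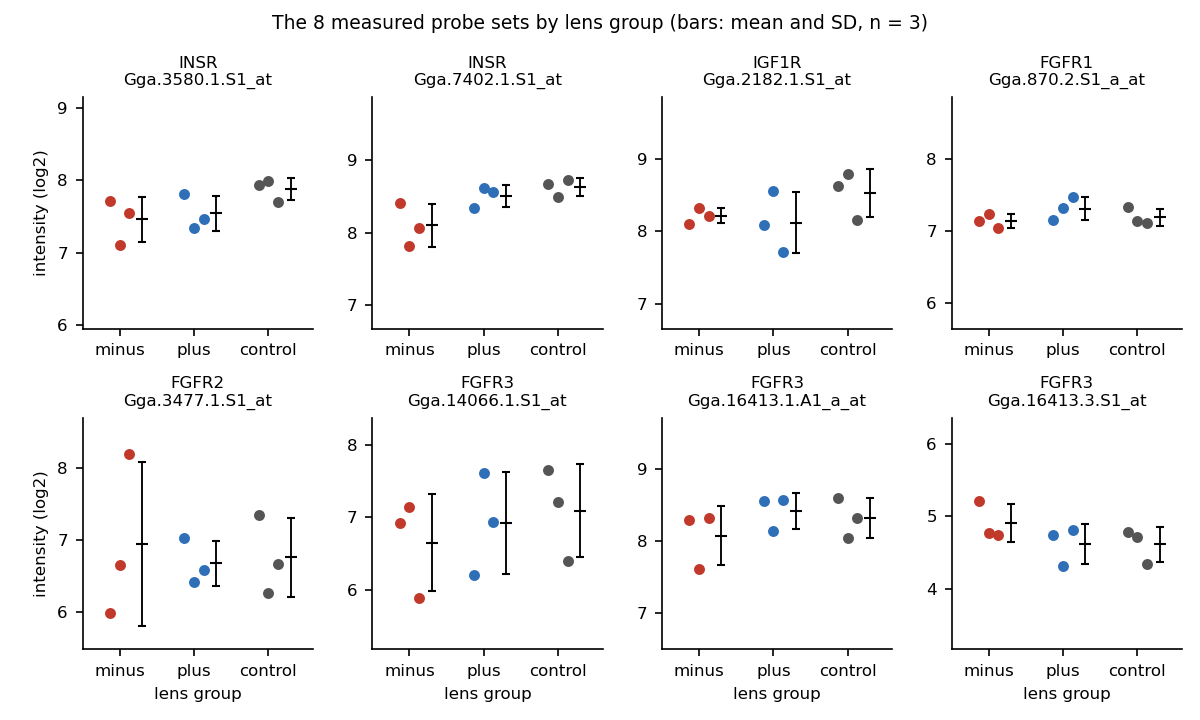
Intensity (log2, y axis, 3.2 units high in every panel) of the 8 measured probe sets, with 1 point for each array in the order of replicates 1 to 3, the minus lens, plus lens and control groups from left to right, and bars for the mean and SD (n = 3). INSR at Gga.7402.1.S1_at is the 1 panel where every minus lens array lies below every control array, and FGFR2 spans 5.98 to 8.19 within the minus lens group.

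Across the 8 measured probe sets no comparison gave a call, beside a background of very few calls on the whole array. For minus lens against control, limma called 0 of 8 at an adjusted p under 0.05, against 0.00771% of all 12975 probe sets tested, and 1 of 8 had an unadjusted p under 0.05, against 7.03%. Groups did not overlap for 1 of 8, against 10.0%. Thus INSR at Gga.7402.1.S1_at was the 1 member in each of these counts, a number near the background. The mean was lower in 6 of 8, against 55.9% of all probe sets, with a median difference of -0.28 over the 8 and -0.03 over all. These 8 read 5 genes, so INSR and FGFR3 count more than once. At the brightest probe set of each gene the differences were -0.53 for INSR, -0.32 for IGF1R, -0.06 for FGFR1, 0.19 for FGFR2 and -0.24 for FGFR3.

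For plus lens against control, 0 of 8 were called, against 0.00771% of all probe sets, 0 of 8 had an unadjusted p under 0.05, against 1.95%, and 0 of 8 had groups without overlap, against 6.67%. The mean was lower in 5 of 8, against 50.6%, with a median of -0.10 over the 8 and -0.0021 over all. For minus lens against plus lens, 0 of 8 were called, against 0.0154%, and 1 of 8, INSR at Gga.7402.1.S1_at, had an unadjusted p under 0.05, against 7.08%. Here 0 of 8 had groups without overlap, against 9.68%, and the mean was lower in 5 of 8, against 54.8%. In limma, an F test over the 3 groups called 0 of 8, against 0.0154%, and gave 1 of 8 an unadjusted p under 0.05, against 5.29%. That 1 was again INSR at Gga.7402.1.S1_at, with an F test p of 0.0299 and an adjusted p of 0.919.

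**Figure D3:**
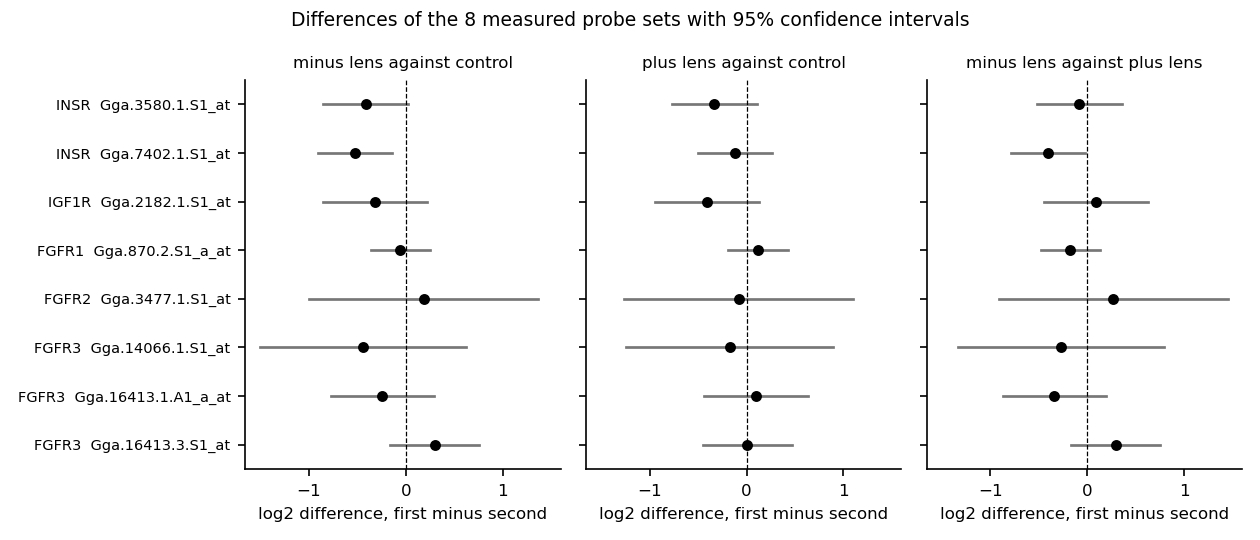
Log2 difference of the group means (points, x axis) with 95% confidence intervals (lines) for the 8 measured probe sets (rows) in the 3 comparisons (panels), each the first group minus the second. The interval of INSR at Gga.7402.1.S1_at lies below 0 against control (-0.91 to -0.15) and against the plus lens (-0.79 to -0.02) before adjustment for the number of probe sets, and every other interval spans 0.

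Among 7129 other genes, each read by its brightest measured probe set, those most like INSR at Gga.7402.1.S1_at over the 9 arrays were GRIA3, which encodes a subunit of AMPA-type glutamate receptors (Pearson r = 0.974), GTF3C3, which encodes a subunit of a transcription factor of RNA polymerase III (r = 0.95), and FAIM, which encodes an inhibitor of apoptosis (r = 0.948). These values describe the same 9 arrays, which share their normalisation, and high values are common in a search over so many genes with so few arrays. This INSR probe set was both the brightest measured member and the one with the smallest F test p, so it alone was searched.

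The other genes of the pathways were read from 7 lists of binding proteins, ligands, regulators and signalling proteins. The lists name 157 genes, not all with a chicken probe set, and 67 were measured. Over the whole array, 7130 of the 13008 genes with a chicken probe set were measured. None of the 67 was called in limma in any comparison, against 0.0140% of 7130 genes called in each. For minus lens against control 11 of 67 (16.4%) had an unadjusted p under 0.05, against 7.03% of genes, and 9 (13.4%) had groups without overlap, against 10.3%. With 1 array left out, the unadjusted count was 3 without control replicate 2, 7 without control replicate 3 and 12 without minus lens replicate 1. Those fits hold a smaller group, and the share over all genes in them is not given here. The mean was lower in 44 of the 67, against 54.6% of genes. For plus lens against control 1 (1.49%) had an unadjusted p under 0.05, against 1.85%, 7 (10.4%) had groups without overlap, against 6.96%, and 42 had a lower mean, against 49.5%. For minus lens against plus lens these counts were 6 (8.96%), against 7.29%, 7 (10.4%), against 10.1%, and 37, against 54.0%. Apart from the FGF ligands, IGF2BP2 and IGF2BP3, list genes named below were picked from those without overlap between groups. The separation given for a named gene was therefore fixed by that choice and is not a result by itself.

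Of 11 measured genes of insulin and IGF binding and adaptors, 5 had a higher and 6 a lower mean with the minus lens than in control. The median was -0.00057, the value of IGF2BP2. This gene and IGF2BP3, also in the list, encode proteins that bind RNA rather than insulin or an IGF. IGF2R, which carries IGF2 to lysosomes in mammals, stood at log2 7.67, 7.72 and 7.16 on the minus lens arrays and at 7.86, 7.96 and 7.73 on the plus lens arrays, a difference of -0.33 (SE 0.17, adjusted p = 0.726). These groups did not overlap, with minus lens replicate 2 just below plus lens replicate 3, and the difference was -0.15 without minus lens replicate 3. The FGF ligands had 4 measured genes of 14 with a probe set, FGF1, FGF7, FGF9 and FGF18, which are named here after their levels were seen. Their differences from control did not pass. FGF1 averaged log2 7.91 with the minus lens, 7.73 with the plus lens and 7.88 in control. The others lay near the floor. In the same order, FGF7 averaged 4.32, 3.99 and 4.09, FGF9 4.39, 4.52 and 4.43, and FGF18 4.92, 4.86 and 4.84. The 2 measured genes of FGF homologous factors, which lack receptor signalling, had 1 higher and 1 lower mean.

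Other receptors and regulators of FGF signalling had the lowest median for minus lens against control, -0.26 over 12 genes with 10 lower, against -0.03 over all genes. FRS3, an adaptor docked on FGF receptors, stood at 7.76, 7.54 and 7.32 on the minus lens arrays and at 7.91, 7.99 and 7.91 on the control arrays, so that the groups did not overlap (log2 -0.40, SE 0.13, adjusted p = 0.683). SPRED1, an inhibitor of the RAS and MAPK cascade, stood at 9.40, 9.17 and 8.89 on the minus lens arrays and at 9.45, 9.45 and 9.64 on the plus lens arrays, also without overlap (-0.36, SE 0.14, adjusted p = 0.689, and -0.23 without minus lens replicate 3). For plus lens against control the median of the 12 genes was -0.16 with 9 lower, from the same control arrays. No gene of the list passed in any comparison.

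In the EGF list, 10 genes measured, the median for minus lens against control was -0.19 with 7 lower. ERBB4, a receptor of neuregulins related to EGFR, was measured, in contrast to EGFR, and stood at 9.33, 9.17 and 9.45 on the minus lens arrays and at 9.49, 9.56 and 9.56 on the control arrays (-0.22, SE 0.12, adjusted p = 0.729). ERRFI1, a feedback inhibitor of EGF receptors, stood at 7.05, 7.05 and 7.31 on the plus lens arrays and at 6.55, 7.00 and 6.97 on the control arrays (0.30, SE 0.25, adjusted p = 0.9998, and 0.15 without control replicate 1). Both pairs of groups separated, by less than log2 0.1 between the nearest arrays, and neither passed.

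Among 13 measured genes of the PI3K, AKT and TOR route, 8 had a lower mean with the minus lens than in control, with a median of -0.05. RICTOR, a subunit of the second TOR complex, stood at 8.58, 8.95 and 8.50 on the minus lens arrays and at 9.24, 9.33 and 9.70 on the control arrays, a difference of -0.75 (SE 0.19, unadjusted p = 0.00345, adjusted p = 0.670). PDPK1, the kinase that activates AKT, stood at 10.36, 10.57 and 10.54 on the minus lens arrays and at 10.16, 9.93 and 10.18 on the plus lens arrays, a difference of 0.40 (SE 0.11, unadjusted p = 0.00579, adjusted p = 0.664). The groups of each pair did not overlap. Against the plus lens group RICTOR differed by -0.69 (SE 0.19, adjusted p = 0.664), also without overlap. PDPK1 differed from control by 0.36 (SE 0.11, adjusted p = 0.683), again without overlap. In both comparisons RICTOR was thus lower and PDPK1 higher with the minus lens, and no difference passed.

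Among 15 measured genes of the RAS and MAPK cascade, 11 had a lower mean with the minus lens than in control, with a median of -0.13. RASA1, which switches RAS off, stood at 8.15, 9.38 and 9.08 on the minus lens arrays and at 10.08, 9.67 and 9.58 on the plus lens arrays (-0.91, SE 0.29, adjusted p = 0.664, and -0.55 without minus lens replicate 1). DUSP4, a phosphatase induced by MAPK activity, stood at 4.57, 4.50 and 4.17 on the plus lens arrays and at 5.08, 5.80 and 4.92 on the control arrays (-0.85, SE 0.29, adjusted p = 0.9998). Both pairs of groups were without overlap, and neither passed. The plus lens mean of DUSP4, log2 4.42, lay near the floor, and its difference was -0.55 with a pseudocount of 16. DUSP4 was also lower with the minus lens than in control (-0.81, SE 0.29, adjusted p = 0.683). Those groups overlapped, the control arrays were the same, and that difference did not pass.

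**Figure D4:**
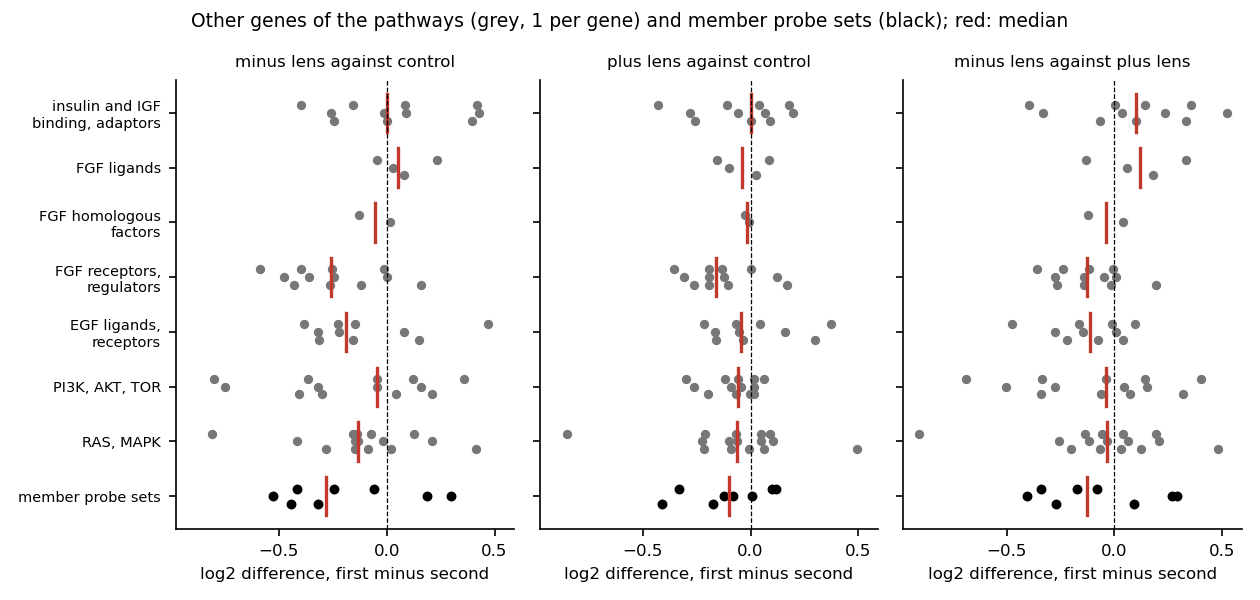
Log2 difference (x axis, first group minus second) of the measured genes of 7 pathway lists (grey points, 1 for each gene, rows) and of the 8 measured member probe sets (black points, bottom row) in the 3 comparisons (panels), with the median of each row in red. For minus lens against control the medians of the FGF regulators (-0.26, by gene) and of the members (-0.28, by probe set, with several for INSR and FGFR3) lie lowest.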

How the data were processed

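Values are GCRMA intensities that the authors deposited on a linear scale, by the submitters' processing notes, the version of GCRMA being not given in the sources used here. This method corrects background by probe base composition, normalises arrays to 1 distribution and summarises probe sets, which narrows differences of dim signals and removes changes in total RNA. Sample titles set the groups, since the source label of the arrays titled minus lens mentions both lenses. Log2 was taken with no pseudocount. Of 38535 probe sets, 96 controls and 746 without a chicken prefix were left out, and 12975 of 37693 (34.4%) at log2 4 or above on at least 3 of 9 arrays were tested in limma 3.58.1 (R 4.3.3). A single fit by lmFit held the 9 arrays, eBayes used the intensity trend, tests were two-sided, and p-values were adjusted by Benjamini-Hochberg over the 12975, with a threshold of 0.05. Log2 differences had a median standard error of 0.19 over all probe sets and 0.22 over the 8 measured members, and the number of arrays limits this precision. The code was tested on simulated data.

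The genes and lists were chosen with earlier results of these data known. List genes were read from the brightest measured probe set, and named if called, or else as the up to 2 with the smallest p among those without overlap of arrays. The 3 genes most like a member were named by Pearson r. Entrez numbers tied all 24 member probe sets to the RefSeq table, with 0 changed symbols. Coordinates are left out because the array is not tied to the build of that table. No scan dates were at hand to test as batches.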

Additional observations from a re-analysis of the deposited data

How the results depend on the processing

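The count of member probe sets called was 0 in all 3 comparisons and in the F test under each alternative run: no filter or a floor of log2 5 or 6, quantile normalisation, median centring, a pseudocount of 16, no intensity trend, arrayWeights, only the 6 arrays compared (not for the F test), a replicate block, 1 probe set for each gene, and leaving out each array in turn. The smallest adjusted p of a member was 0.307, for INSR at Gga.7402.1.S1_at without minus lens replicate 1. Its difference from control ran from -0.69 to -0.39, with an unadjusted p under 0.05 in each of 20 alternatives, and its difference from the plus lens group from -0.56 to -0.27, with one in 10 of 20. Pairing was read from what remained of each tested probe set after its group mean was subtracted, not from the array values themselves. In these remainders, same-numbered arrays of different groups had r of -0.06 to 0.16 over 9 pairs (2 of them over 0.1). Differently numbered arrays of different groups had r of -0.15 to 0.14. Of the 9 arrays, 4 were closest to their own number. These values show no clear pairing by replicate number, and so few arrays cannot exclude one. With the replicate block, which cannot move a difference of means when each group holds the same numbers (-0.53 and -0.41 here), the adjusted p was 0.664 and 0.695, and no call changed. The pathway lists also kept a count of 0 called genes throughout, with 3 to 12 at an unadjusted p under 0.05 for minus lens against control.

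Of 465 recomputed member differences, 20 had another sign, 15 of them from a difference within log2 0.2 of 0. The other 5 were FGFR2 at Gga.3477.1.S1_at against the plus lens, from 0.27 to -0.36 without minus lens replicate 3 and -0.05 with arrayWeights, and FGFR3 at Gga.14066.1.S1_at between the lenses, from -0.27 to 0.11 without minus lens replicate 3, 0.08 without plus lens replicate 2 and 0.10 with arrayWeights. The number of members above the floor was 10 at log2 3, 7 at log2 5 or log2 6, 8 without any 1 array, and 9 at the 95th percentile of the probe sets without a chicken prefix, a floor chosen after seeing the data. With 3 arrays a group, no member difference passed over the 12975 probe sets, which does not show that the differences are absent. Below the floor no size can be read.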
